A study of Homo sapiens with 6 samples.

Results

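The lysosomal gene set described here holds 36 genes for lysosomal enzymes, lysosomal membrane proteins, proton pump subunits and the transcription factors that control them. Its members were taken by gene symbol from the 27887 rows of the deposited expression table, and 36 of 36 symbols were found. Expression was measured by RNA-seq in KYSE450, a long-established cell line from a human squamous cell carcinoma of the esophagus (ESCC), which the labels list as WT in the mock group and as HMGB2 knockdown in the other. The mock group holds 3 libraries of cells infected with a mock virus, and the shHMGB2 group holds 3 libraries of cells infected with a virus carrying a short hairpin RNA against HMGB2, a chromatin protein that bends DNA. A single cell line was used, and how many hairpins the virus carried and what the mock virus held are not given in the sources used here. Nor do the labels say whether libraries came from separate cultures, so every p-value rests on a spread between libraries that may be technical. The series asks, per its design text, which genes regulate cholesterol metabolism.

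Lysosomes are acidic organelles in which hydrolases break down proteins, glycans and lipids delivered by endocytosis and autophagy. The V-ATPase pumps protons into the lumen, most soluble enzymes are tagged with mannose 6-phosphate in the Golgi and carried by receptors, and TFEB and TFE3 switch on many of these genes through a short DNA element named CLEAR. In cholesterol metabolism, the lysosome is where acid lipase frees cholesterol from the esters of endocytosed lipoproteins, and NPC1 and NPC2 pass it on. Expression is given as FPKM, fragments scaled by transcript length and by the mapped fragments of the library, which allows levels of different genes to be compared.

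The knockdown lowered the target in every library: HMGB2 was 108.6 to 115.8 FPKM in mock and 22.1 to 27.8 FPKM in shHMGB2 (log2 fold change -2.14). Summed FPKM per library ranged from 740684 to 829437. Squamous epithelial markers, among them keratins and TP63, summed to 8373 to 8742 FPKM in mock and 7507 to 8320 FPKM in shHMGB2, and 12 of 12 reached the mean of 1 FPKM required for testing. Of these 0 were higher and 3 were lower in limma (KRT14, KRT6A and SFN). Of 9 macrophage and leukocyte markers in the table, 0 reached that mean. Their sum was 0.46 to 1.02 FPKM in mock and 0.65 to 1.58 FPKM in shHMGB2. Fibroblast markers summed to 2.91 to 3.70 and 3.99 to 4.41 FPKM, and endothelial markers to 1.88 to 2.58 and 2.39 to 2.80 FPKM, with 0 of the 2 tested genes of these lists passing. LUM made up most of the fibroblast sum, with means of 2.57 FPKM in mock and 3.49 FPKM in shHMGB2. The part of these markers in the results was not tested. In bulk RNA, fewer cells of a type and less RNA per cell cannot be told apart.

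Most lysosomal genes differed little between the groups. Of 35 members tested, 1 was higher in shHMGB2 (LIPA, the lysosomal acid lipase), 2 were lower (CD68, a heavily glycosylated lysosomal membrane protein, and ATP6AP1, an accessory protein of the V-ATPase) and 32 did not pass. The test was limma on log2(FPKM + 1) with an adjusted p of at most 0.05 over all 13409 genes tested. Across those genes 3.3% were called higher (442) and 3.45% lower (463), so the members' counts lie near the background. With libraries scaled by median ratios, the same totals were 349 higher and 571 lower. The members' median log2 fold change was 0.0701, against 0.0352 over all tested genes. Without mock replicate 3 it was 0.0339 against 0.036, the only alternative in which the members' median was the lower. With median-ratio scaling it was 0.0323 against 0.00184, and with array weights 0.104 against 0.0266. Of the members tested, 33 of 35 had an absolute log2 fold change under 0.3. The count of higher members fell to 0, and that of lower members to 1, when mock replicate 2 or any single shHMGB2 library was left out. CD68 passed in each of these fits.

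Most members had a positive difference, although CD68 and ATP6AP1 among the called members were lower. A positive log2 fold change was found for 25 of 35 members (71.4%), against 57.0% of all tested genes. Among the fits that leave out 1 library, the members' share moved most without mock replicate 3. There CTSB, CTSZ, CTSV, PSAP and TFE3 turned negative, at -0.0246 to -0.00192. Fewer signs changed without any other library. CTSZ turned negative without mock replicate 2, and CTSV without shHMGB2 replicate 2 or shHMGB2 replicate 3. Without mock replicate 1 or shHMGB2 replicate 1, TFE3 turned negative and GLA positive. The share of all tested genes in these fits is not given here. The 3 shHMGB2 libraries lay above all 3 mock libraries for 14 members and below them for 6. Over all tested genes those patterns were found in 21.6% and 14% of cases. At an unadjusted limma p under 0.05 there were 10 higher and 4 lower members, where 16.8% and 11.1% of all tested genes met the same rule. In the authors' deposited table, 2 members, LIPA and LAMP2, were higher and 3, CD68, ATP6AP1 and CD63, were lower at an adjusted p under 0.05, against 6.13% and 9.23% of the genes with a deposited adjusted p. The authors' deposited table called 76 of its 27887 rows Up or Down, and 0 of the 36 members were among them. With so few rows marked, that count lies near the background. An adjusted p under 0.05 was not enough for the mark, since CD68 and ATP6AP1 did not carry it.

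**Figure D1:**
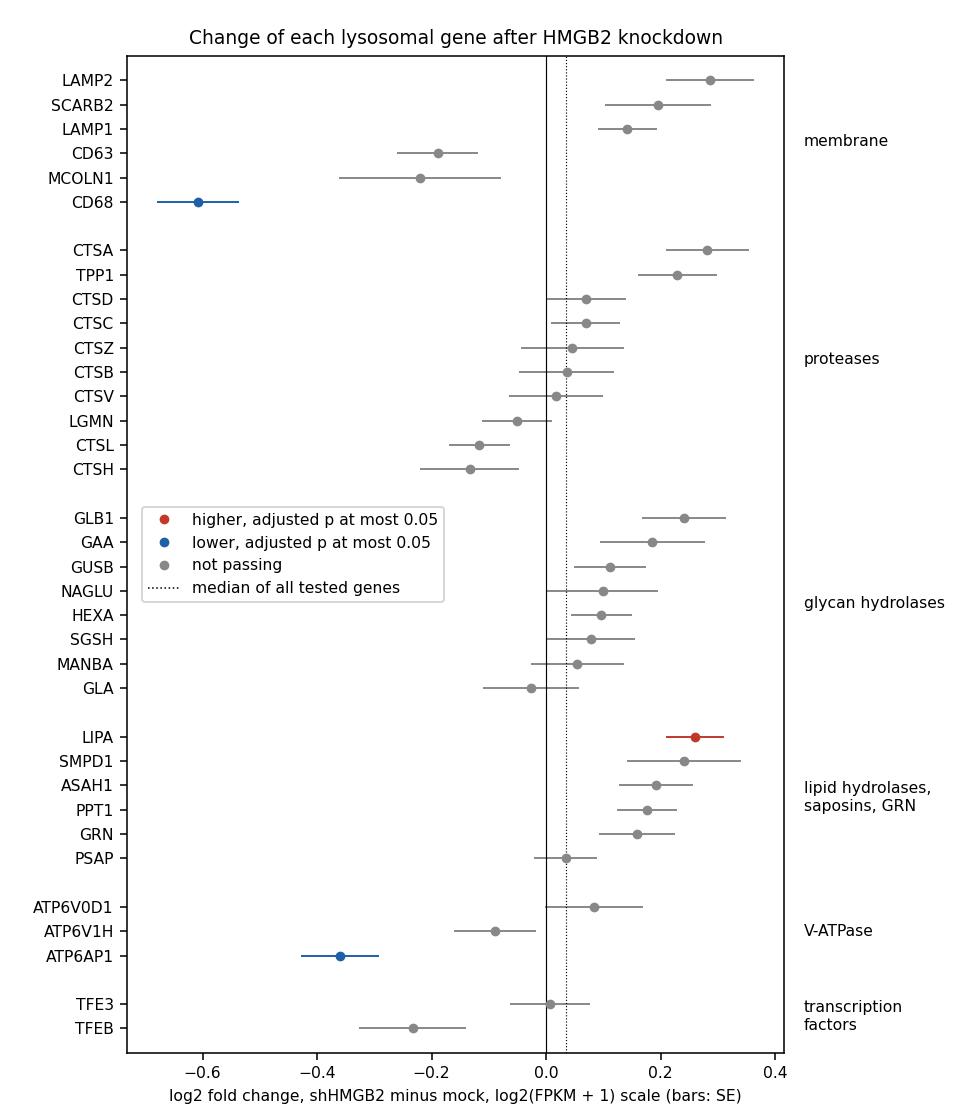
Log2 fold change of the 35 tested lysosomal genes (horizontal axis, shHMGB2 minus mock on the log2(FPKM + 1) scale), grouped by role. Points are limma estimates and bars their standard errors; CD68 at -0.61 and ATP6AP1 at -0.36 are the lower calls, LIPA at 0.26 the higher one, and the dotted line marks the median of all tested genes.

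Members differed widely in level. CD63, a tetraspanin of late endosomes and lysosomes, had the highest mock mean at 252 FPKM. It was followed by CTSC at 193, CTSD at 178, PSAP at 143 and LAMP1 at 96.8 FPKM. CTSC and CTSD did not separate, since their mock libraries overlapped, whereas CD63 lay above CTSC and CTSD above PSAP in all mock libraries. The lowest tested levels were those of SMPD1 at 1.34, TFEB at 2.55, SGSH at 3.61, MANBA at 3.79 and MCOLN1 at 4.67 FPKM. SGSH overlapped MANBA, and MANBA overlapped MCOLN1, in the mock libraries. NEU1 was listed below the testing minimum and is described apart, since its reads were divided over several rows.

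**Figure D2:**
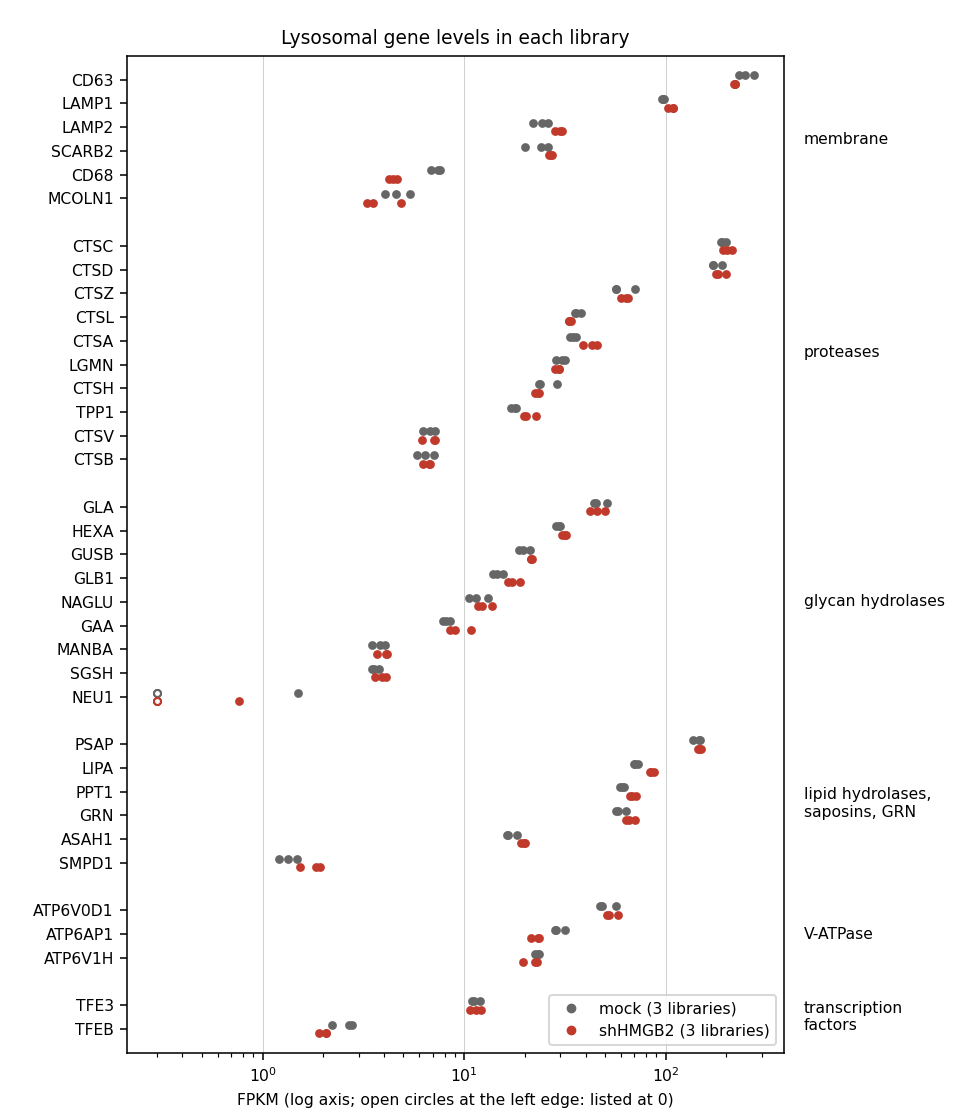
FPKM of the 36 lysosomal genes in each of the 6 libraries on a log axis, by role (grey: mock, red: shHMGB2; open circles: listed at 0). Levels run from NEU1, listed at 0 in 4 libraries, to CD63 at 219 to 275 FPKM, and the colours separate fully only in part of the genes.

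Among the membrane proteins CD68 fell and the others did not pass. CD68, a scavenger receptor family member best known from macrophages, had 7.39, 7.59 and 6.86 FPKM in mock replicates 1 to 3 and 4.65, 4.42 and 4.23 FPKM in shHMGB2 replicates 1 to 3. All shHMGB2 libraries lay below all mock libraries. The mean fell from 7.28 ± 0.377 to 4.43 ± 0.210 FPKM (SD, n = 3 each), 1.64-fold lower, with a change of -0.61 on the log2(FPKM + 1) scale (SE 0.072, limma adjusted p = 0.00454). Leaving out each library in turn kept the adjusted p between 0.0112 and 0.0287. The defining leukocyte markers were near 0 in every library: PTPRC was at most 0.03 FPKM, SPI1 at most 0.02, CSF1R at most 0.05 and CD163 at most 0.01. The largest single value on that list was 1.16 FPKM, for FCER1G in shHMGB2 replicate 3. CD68 lies on chromosome 17 at 7579638 to 7582111 (GRCh38). In GENCODE 29 another gene model on the same strand, AC016876.2, shares 1789 of the 2189 exon bases of CD68, so reads of the CD68 row could also stem from that transcript. Whether it has a part in the fall was not tested.

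LAMP2 and LAMP1, the heavily glycosylated proteins that make up much of the lysosomal membrane, had higher values in shHMGB2 without passing. LAMP2 had 21.9, 24.5 and 26.2 FPKM in mock and 28.2, 30.8 and 30.0 FPKM in shHMGB2, with no overlap (log2 fold change 0.29, SE 0.077, limma adjusted p = 0.0688). LAMP1 had 98.4, 96.5 and 95.4 FPKM in mock and 108.9, 103.2 and 108.7 FPKM in shHMGB2, again without overlap (log2 fold change 0.14, SE 0.051, limma adjusted p = 0.128). SCARB2, the receptor that carries glucocerebrosidase to the lysosome, had 20.1, 24.1 and 26.1 FPKM in mock and 26.9, 27.2 and 26.4 FPKM in shHMGB2 (limma adjusted p = 0.216). Its mock libraries spread more widely than its shHMGB2 libraries, with SDs of 3.05 and 0.406 FPKM.

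CD63 and MCOLN1 pointed the other way. CD63 had 274.7, 248.4 and 232.0 FPKM in mock and 220.7, 218.9 and 220.7 FPKM in shHMGB2. The groups did not overlap, but the SD was 21.5 FPKM in mock and 1.07 FPKM in shHMGB2, and the difference did not pass (log2 fold change -0.19, SE 0.070, limma adjusted p = 0.135). In the authors' deposited table CD63 had a log2 fold change of -0.28 with an adjusted p of 0.0129. MCOLN1, the calcium channel TRPML1, had 5.40, 4.04 and 4.57 FPKM in mock and 4.86, 3.30 and 3.51 FPKM in shHMGB2. These ranges overlapped (limma adjusted p = 0.344).

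**Figure D3:**
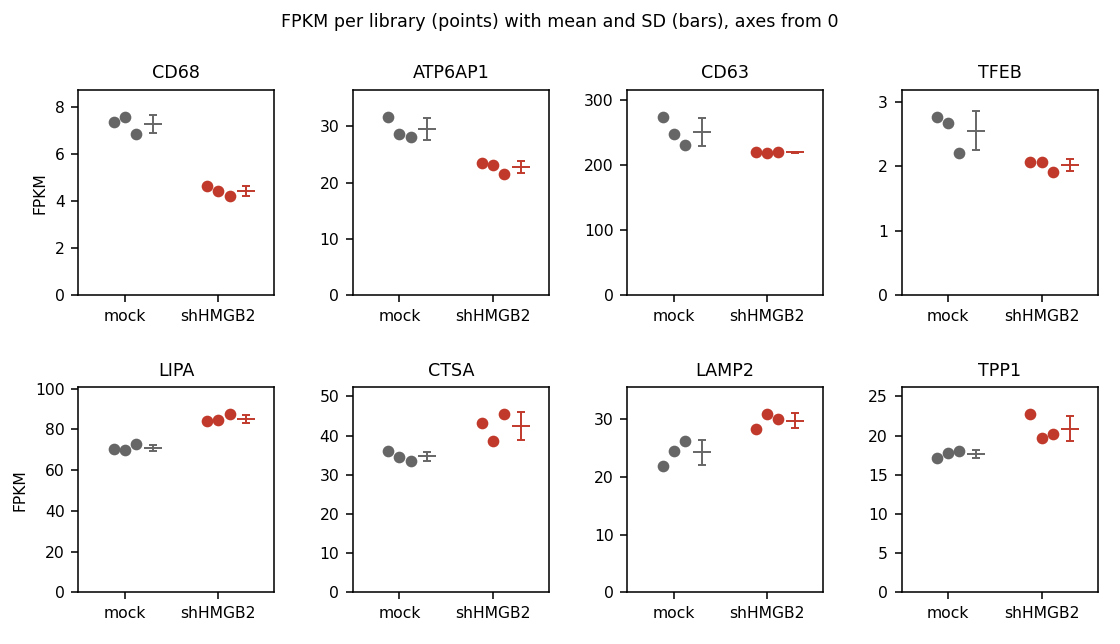
FPKM per library for 8 lysosomal genes, with group mean and SD beside the points (grey: mock, red: shHMGB2; axes start at 0). In each of these genes the 3 shHMGB2 libraries lie on one side of the 3 mock libraries; CD68, ATP6AP1 and LIPA passed the limma threshold, with adjusted p = 0.00454, 0.025 and 0.0276.

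In the group of lipid and thioester hydrolases and saposins, where GRN was also placed, LIPA rose. Each of the other 5 had a positive log2 fold change without passing, where 57.0% of all tested genes had a positive one. LIPA hydrolyses cholesteryl esters and triglycerides. It had 70.5, 69.9 and 72.6 FPKM in mock and 83.9, 84.4 and 87.4 FPKM in shHMGB2. The groups were well apart. The mean was 20.04% higher, at 85.2 ± 1.93 against 71.0 ± 1.43 FPKM (SD, n = 3 each), and the log2 fold change of 0.26 had an SE of 0.050 (limma adjusted p = 0.0276). The call was lost when mock replicate 2 or any single shHMGB2 library was left out, with limma adjusted p from 0.0746 to 0.118.

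The span of LIPA contains interferon-induced genes that rose in the same libraries, and they were looked at after the values were seen. In RefSeq it spans chromosome 10 from 89213572 to 89414679 (GRCh38), and IFIT2, IFIT3 and IFIT1, antiviral RNA-binding proteins, lie within that span on the opposite strand. IFIT1 had 64.7, 80.7 and 71.5 FPKM in mock and 121.1, 130.8 and 137.1 FPKM in shHMGB2. IFIT2 rose 1.78-fold and IFIT3 1.67-fold (limma adjusted p = 0.00134 and 0.00106), and IFIT1 1.79-fold (0.0031). In GENCODE 29 the exons of LIPA cover 4910 bases, of which 65 are shared with IFIT2, 0 with IFIT3 and 0 with IFIT1. Another gene model on the opposite strand, AL353751.1, shares 135 of these bases. The sources used here do not state whether the counting used strand. Any part of the neighbouring transcripts in the LIPA value was not tested.

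The remaining genes of this group had smaller log2 fold changes than LIPA on the log2(FPKM + 1) scale. PPT1, a thioesterase that removes fatty acids from proteins, had 61.8, 59.2 and 60.9 FPKM in mock and 68.2, 66.9 and 71.1 FPKM in shHMGB2 (log2 fold change 0.18, SE 0.052, limma adjusted p = 0.085). ASAH1, the acid ceramidase, had 16.5, 16.4 and 18.4 FPKM in mock and 19.1, 20.02 and 19.7 FPKM in shHMGB2 (limma adjusted p = 0.114). Both genes had all shHMGB2 libraries above all mock libraries. SMPD1, the acid sphingomyelinase, was low throughout, at 1.48, 1.21 and 1.33 against 1.53, 1.92 and 1.85 FPKM. Its ratio of means, 1.32, was the highest among the 35 tested members, but the difference did not pass (limma adjusted p = 0.168). GRN, the progranulin precursor, went from a mean of 59.4 to 66.4 FPKM and PSAP, the saposin precursor, from 143 to 146 FPKM, with limma adjusted p = 0.174 and 0.713. PPT1 overlaps the highly expressed gene CAP1, on the opposite strand, over 1189 of its 5088 exon bases, and CAP1 had 133 to 141 FPKM in mock and 131 to 132 FPKM in shHMGB2.

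Among the 10 proteases 0 passed in limma, and the 3 nearest to the threshold, CTSA, TPP1 and CTSL, had adjusted p from 0.062 to 0.204. CTSA, or protective protein, a carboxypeptidase that stabilises beta-galactosidase and the sialidase NEU1, had 36.0, 34.6 and 33.5 FPKM in mock and 43.2, 38.7 and 45.5 FPKM in shHMGB2. Its groups did not overlap (log2 fold change 0.28, SE 0.072, limma adjusted p = 0.062). TPP1, a tripeptidyl peptidase, had 17.1, 17.8 and 17.98 FPKM in mock and 22.7, 19.8 and 20.2 FPKM in shHMGB2 (limma adjusted p = 0.0892). These genes had all shHMGB2 libraries above mock.

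The cysteine and aspartic cathepsins lay closer to no difference. CTSD, the main aspartic protease of lysosomes, had 190.2, 172.5 and 170.7 FPKM in mock and 200.1, 181.6 and 178.4 FPKM in shHMGB2, with overlapping groups (log2 fold change 0.07, SE 0.070). CTSC, which activates serine proteases of immune cells, had means of 193 and 203 FPKM, and CTSZ, a carboxypeptidase, of 61.2 and 62.9 FPKM. CTSL, an endopeptidase, had 37.9, 35.8 and 35.4 FPKM in mock and 33.9, 33.1 and 33.3 FPKM in shHMGB2. Its groups did not overlap and it did not pass (log2 fold change -0.12, SE 0.054, limma adjusted p = 0.204). Its relative CTSV, which is more restricted in its tissues, had 7.18, 6.73 and 6.28 FPKM in mock and 6.21, 7.08 and 7.20 FPKM in shHMGB2, so its groups overlapped (limma adjusted p = 0.904). CTSL and CTSV are close relatives, and the authors' counting could divide shared reads between them. CTSH, an aminopeptidase, had means of 25.4 and 23.0 FPKM, LGMN, the asparaginyl endopeptidase that matures cathepsins, of 30.2 and 29.1 FPKM, and CTSB, a cysteine protease, of 6.41 and 6.58 FPKM. Their limma adjusted p values were 0.347, 0.618 and 0.801. For CTSH all shHMGB2 libraries lay below mock, while the groups of LGMN and CTSB overlapped.

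Among the glycan hydrolases 0 of 8 tested members passed in limma. A positive log2 fold change was found for 7 of 8, against 57.0% of all tested genes. GLB1, the beta-galactosidase, had 15.6, 13.97 and 14.6 FPKM in mock and 19.0, 16.6 and 17.3 FPKM in shHMGB2. The libraries of the groups did not overlap (log2 fold change 0.24, SE 0.073, limma adjusted p = 0.0915). GAA, the acid alpha-glucosidase that degrades glycogen, had 8.49, 8.14 and 7.82 FPKM in mock and 10.8, 8.98 and 8.55 FPKM in shHMGB2, where replicate 1 was the highest (limma adjusted p = 0.231). HEXA, a hexosaminidase subunit, had 29.7, 29.7 and 28.5 FPKM in mock and 32.1, 30.6 and 31.6 FPKM in shHMGB2 (limma adjusted p = 0.274). GUSB, the beta-glucuronidase, had means of 19.9 and 21.5 FPKM, and neither HEXA nor GAA nor GUSB overlapped between the groups. NAGLU and SGSH, enzymes of heparan sulfate breakdown, MANBA, the beta-mannosidase, and GLA, the alpha-galactosidase, had overlapping groups. Their log2 fold changes were 0.10, 0.08, 0.05 and -0.03.

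NEU1, the lysosomal sialidase, could not be judged from its own row. That row was listed at 0 in 4 libraries, with 1.49 FPKM in mock replicate 3 and 0.76 FPKM in shHMGB2 replicate 2. The table holds 8 rows for this gene, named NEU1 and NEU1-2 to NEU1-8. The row that carried the reads differed between libraries. NEU1-5 held 6.39 FPKM in mock replicate 2, NEU1-6 held 5.64 FPKM in shHMGB2 replicate 1, and NEU1-8 held 4.79 FPKM in shHMGB2 replicate 3. The rows NEU1, NEU1-4 and NEU1-7 had equal values in every library. Summed over the 8 rows, NEU1 had 7.98, 6.39 and 5.96 FPKM in mock and 5.72, 5.14 and 4.90 FPKM in shHMGB2. The sums did not overlap, with means of 6.78 ± 1.06 and 5.25 ± 0.422 FPKM (SD, n = 3 each), and the difference did not pass when all numbered copies in the table were summed (log2 fold change -0.26, SE 0.17, limma adjusted p = 0.357).

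**Figure D4:**
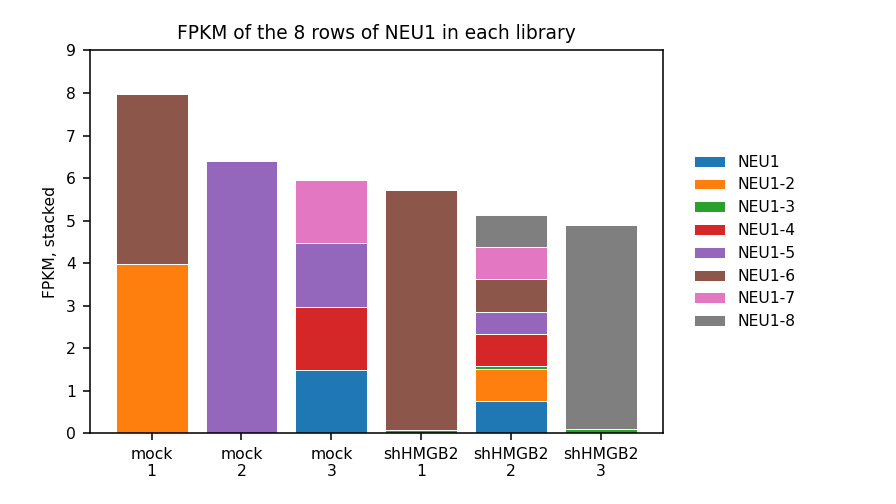
Stacked FPKM of the 8 rows that the deposited table holds for NEU1, for each of the 6 libraries. The colours show that different rows carry the signal in different libraries, while the stacked sums vary between 4.90 and 7.98 FPKM.

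Numbered copies existed for 4 other members. GAA had a second row that lay between 7.56 and 9.66 FPKM over all libraries, nearly as much as its first row, and TFE3 a second row at 9.71 to 10.9 FPKM over all libraries. CTSB had a second row at 4.39 to 4.99 FPKM, so its summed level was 10.9 ± 0.705 FPKM in mock against 6.41 FPKM for the first row alone. SGSH-2 was at most 0.73 FPKM. The summed fits gave adjusted p = 0.197 for GAA, 0.607 for CTSB, 0.900 for TFE3 and 0.978 for SGSH in limma.

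Of the V-ATPase members, ATP6AP1 fell. This accessory subunit, Ac45, helps the pump assemble and reach its membranes. It had 31.7, 28.6 and 28.1 FPKM in mock and 23.5, 23.2 and 21.6 FPKM in shHMGB2. The groups did not overlap. The mean was 1.30-fold lower, at 22.7 ± 1.01 against 29.5 ± 1.90 FPKM (SD, n = 3 each), and the log2 fold change of -0.36 had an SE of 0.068 (limma adjusted p = 0.025). As for LIPA, leaving out mock replicate 2 or any single shHMGB2 library ended the call, with limma adjusted p from 0.0696 to 0.0941. ATP6AP1 lies on chromosome X at 154428677 to 154436516 (GRCh38). ATP6V0D1, a subunit of the membrane sector, had 56.4, 48.4 and 47.0 FPKM in mock and 57.7, 50.9 and 52.2 FPKM in shHMGB2. ATP6V1H, a regulatory subunit of the cytosolic sector, had 23.2, 22.6 and 23.6 FPKM in mock and 19.7, 22.6 and 23.0 FPKM in shHMGB2. Both overlapped between groups, with limma adjusted p = 0.551 and 0.450.

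The transcription factors of the pathway were not called. TFEB had 2.77, 2.68 and 2.21 FPKM in mock and 2.07, 2.07 and 1.91 FPKM in shHMGB2. Its groups did not overlap and the difference did not pass (log2 fold change -0.23, SE 0.093, limma adjusted p = 0.157). TFE3, which was higher in level, had 11.1, 11.9 and 10.99 FPKM in mock and 12.1, 10.7 and 11.5 FPKM in shHMGB2 (log2 fold change 0.01, SE 0.070, limma adjusted p = 0.961). These are transcript levels, and both factors are known to be regulated by phosphorylation and nuclear entry, which RNA-seq does not measure.

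The CLEAR element read by TFEB and TFE3 was located in the members' promoters to show which genes hold it, a choice made after the values were seen. RefSeq promoter windows (GRCh38.p14, 250 bases before to 50 after a gene start) matched 26 of 36 members in 37 windows. The core TCACGTGA, which reads the same on both strands and contains the E-box CACGTG, was found in the windows of 5 members, 19.2% of the 26. It was found in 0.98% of all 35116 windows and for 1.18% of all gene symbols with a window. As the element is known from lysosomal genes, its higher share among the members is not a result of these data. The E-box alone was found for 8 members (30.8%), the same 5 with CD63, CTSD and NEU1, and for 8.77% of all symbols. The stretches around the core are shown 5′ to 3′ on the gene's strand, with the core in capitals. They lie at chr13:113297184-113297270 (plus strand, LAMP1), chr16:67481184-67481243 (minus strand, ATP6V0D1), chr17:80101478-80101582 (plus strand, GAA), chr19:7522556-7522642 (plus strand, MCOLN1) and chr20:45891283-45891342 (plus strand, CTSA).
LAMP1: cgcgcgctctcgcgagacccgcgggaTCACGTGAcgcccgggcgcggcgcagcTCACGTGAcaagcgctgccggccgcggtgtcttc
ATP6V0D1: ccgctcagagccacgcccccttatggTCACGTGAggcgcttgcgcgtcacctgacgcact
GAA: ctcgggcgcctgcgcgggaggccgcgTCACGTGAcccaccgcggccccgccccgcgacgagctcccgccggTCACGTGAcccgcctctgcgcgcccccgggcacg
MCOLN1: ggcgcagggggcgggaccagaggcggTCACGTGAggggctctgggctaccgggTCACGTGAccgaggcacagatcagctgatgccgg
CTSA: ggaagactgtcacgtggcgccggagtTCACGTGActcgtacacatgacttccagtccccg

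LAMP1, GAA and MCOLN1 held 2 copies of the core each. The 5 genes had log2 fold changes of 0.14 (LAMP1), 0.08 (ATP6V0D1), 0.19 (GAA), -0.22 (MCOLN1) and 0.28 (CTSA), and 0 of 5 passed in limma, with adjusted p from 0.062 to 0.551. The core was not among the letters of the LIPA, CD68 and ATP6AP1 windows, the genes that passed. A match is a run of letters and not a measured binding site.

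The windows of the 26 members were also searched for the AP-1 element TGACTCA on both strands, again a choice made after the values were seen. The element was found for 3 of the 26 members (CD63, CD68 and TFE3), 11.5%, and for 6.05% of all symbols. Of the 6 members whose shHMGB2 libraries all lay below mock, CD68 and CD63 hold it, and its letters are not in the windows of CTSH, CTSL, TFEB and ATP6AP1. TFE3 holds it with a log2 fold change of 0.01. The 6 members were picked by their values in these same libraries, and any part of the element in their levels was not tested. The stretches are at chr17:7579512-7579570 (plus strand, CD68) and chr12:55729106-55729164 (minus strand, CD63, in 1 of its windows), with the element or its reverse complement in capitals.
CD68: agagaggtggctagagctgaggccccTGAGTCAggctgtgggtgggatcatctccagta
CD63: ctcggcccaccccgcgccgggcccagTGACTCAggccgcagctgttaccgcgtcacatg

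Other genes of the lysosomal pathway were read from 8 lists that exclude the members. Of 118 genes tested on them, 8 were higher, 1 was lower and 109 did not pass, where 3.3% and 3.45% of all tested genes were called. Without a filter on low values the counts were 3 higher and 0 lower. Of 20 other hydrolases and related lysosomal genes, 2 were higher and 0 were lower in limma. HGSNAT, which acetylates heparan sulfate, rose from 3.25, 3.79 and 3.61 FPKM to 5.34, 5.17 and 5.17 FPKM (log2 fold change 0.45, SE 0.076, limma adjusted p = 0.0166). AGA, the aspartylglucosaminidase, rose from 13.9 ± 0.422 to 17.96 ± 1.24 FPKM (SD, n = 3 each), with a limma adjusted p of 0.0291. HGSNAT lost its call when any single shHMGB2 library was left out, with limma adjusted p from 0.0658 to 0.0712. AGA kept its call only without shHMGB2 replicate 2 among the 6 fits that leave out a library, and the other fits gave limma adjusted p from 0.0529 to 0.109.

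Among 23 other membrane and transport proteins, 4 were higher and 0 were lower, where 3.3% and 3.45% of all tested genes were called. LAMP3, the dendritic cell and interferon-inducible relative of LAMP1 and LAMP2, rose from 29.4, 35.3 and 32.0 FPKM to 54.1, 52.3 and 55.5 FPKM. The groups were far apart (log2 fold change 0.73, SE 0.075, limma adjusted p = 0.00256), and LAMP3 passed without each library in turn. OSTM1, the partner of the chloride transporter CLCN7, rose from 4.21 ± 1.05 to 7.11 ± 0.257 FPKM. SLC38A9, an arginine sensor of mTORC1, rose from 11.8 ± 0.970 to 16.3 ± 1.09 FPKM (SD, n = 3 each). The adjusted p values of the pair were 0.0414 and 0.0231 in limma. LAPTM4A was the remaining riser, with means of 99.4 and 125 FPKM (limma adjusted p = 0.0177). The cholesterol exporters NPC1 and NPC2, named here for the series' question after their values were seen, had means of 16.02 and 16.01 FPKM and of 73.4 and 77.1 FPKM, with limma adjusted p = 0.985 and 0.466. OSTM1, SLC38A9 and LAPTM4A lost their calls when mock replicate 2 or any single shHMGB2 library was left out, with limma adjusted p from 0.0536 to 0.128.

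Mannose 6-phosphate sorting genes included 2 that rose among 12 tested, where 3.3% of all tested genes were called higher. In this list 10 of 12 had a positive log2 fold change, against 57.0% of all tested genes. GNPTAB, which encodes the transferase that begins the tag, rose from 7.72, 8.69 and 9.92 FPKM to 13.5, 13.9 and 12.3 FPKM (log2 fold change 0.54, SE 0.096, limma adjusted p = 0.0195). M6PR, the cation-dependent receptor for the tag, rose from 100.2 ± 1.29 to 121.2 ± 3.43 FPKM (SD, n = 3 each), with a limma adjusted p of 0.0239. Both had non-overlapping groups, and both lost their calls without the same 4 libraries (limma adjusted p from 0.0502 to 0.114). The median log2 fold change over the 12 genes was 0.16, against 0.04 over all tested genes.

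The remaining lists, which hold V-ATPase subunits, cathepsin inhibitors, other proteases, TFEB and mTORC1 control genes and autophagy genes, gave 1 call. Of 14 other V-ATPase subunits 1 fell, ATP6V1E1, a stalk subunit, with 142.5, 124.7 and 121.9 FPKM in mock and 97.9, 105.1 and 102.6 FPKM in shHMGB2 (log2 fold change -0.34, SE 0.073, limma adjusted p = 0.0367). Leaving out mock replicate 2 or any single shHMGB2 library ended this call too, with limma adjusted p from 0.0960 to 0.120. A fit without a variance trend gave a limma adjusted p of 0.0522. Of 3 tested cathepsin inhibitors, 4 other proteases, 18 genes of TFEB and mTORC1 control and 24 autophagy genes, 0 passed in limma. The smallest p of each was found for CSTB (cystatin B, 195 ± 26.1 against 143 ± 12.7 FPKM, SD, n = 3 each, with limma adjusted p = 0.0538), SCPEP1 (0.117), LAMTOR5 (0.104) and OPTN (0.0658).

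**Figure D5:**
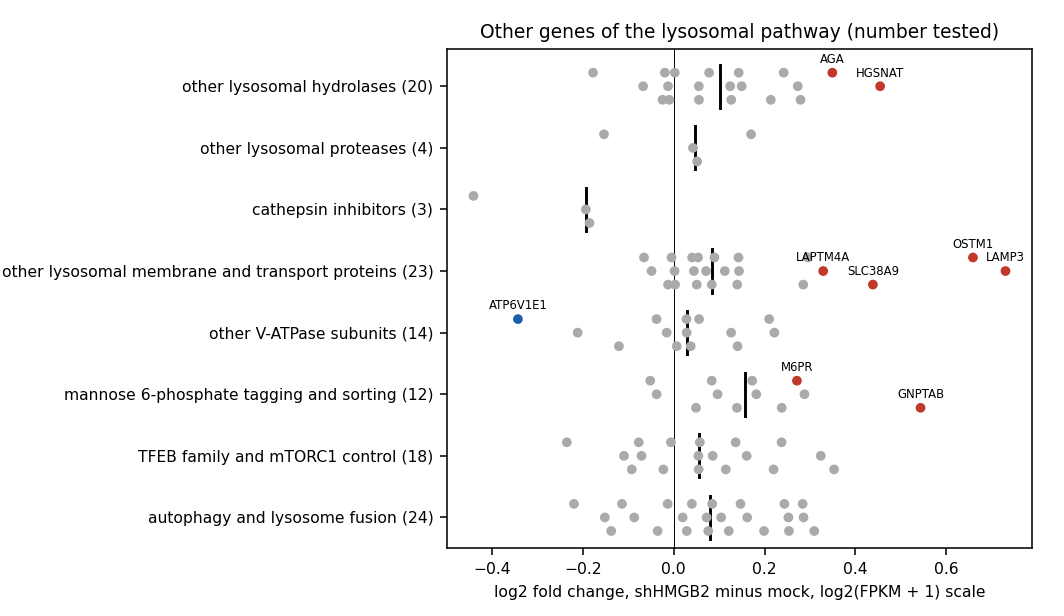
Log2 fold change (shHMGB2 minus mock, log2(FPKM + 1) scale) of 118 further lysosomal pathway genes in 8 lists, with each list's median as a black bar. Red and blue points passed the limma threshold; the 8 red points include LAMP3 at 0.73 and OSTM1 at 0.66, and the blue point is ATP6V1E1 at -0.34.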

How the data were processed

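The deposited table holds FPKM for each library in 27887 rows, made by the authors. Bowtie2 2.2.5, RSEM 1.2.12 and hg38 stand in the submitters' processing notes, which give no role or order. The group values (a signal), the log2 fold change and the p-value columns are from the authors' own comparison, per the file headers, and its test is not named there. Rows were matched by exact symbol. For the 13409 genes averaging 1 FPKM or more over 6 libraries, limma 3.58.1 (R 4.3.3) fitted log2(FPKM + 1) on group alone, letting the prior variance follow the mean level. The p-values are 2-sided, adjusted by Benjamini-Hochberg over all 13409 genes, with a threshold of 0.05. Changes of low genes are understated on this scale. No read counts per library are held in the FPKM columns, so no counting interval is given. Tables were made with Python 3.11.15 and pandas 2.3.3.

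The members and lists were chosen with earlier results of these data known. All members were described by role, with values per library for those past the threshold, 8 set by name and the 3 of each role nearest the threshold. From each list the genes past the threshold (at most 3 by size of change, the rest added after their values were seen) were named, or else the gene with the smallest p. Some genes of the lists are not reported here. Alternatives were another pseudocount, other filters, 3 scalings, no variance trend, array weights, the replicate number as a block, each library left out, and numbered copies of a gene summed, which was chosen after seeing the data. Promoter windows and gene spans are from RefSeq and exon overlaps from GENCODE 29, all on GRCh38. Exon overlaps are described for CD68, LIPA and PPT1 only. Other members share exon bases with other gene models too, such as CTSD with AC068580.4 (1304 of 3126 bases, same strand).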

Additional observations from a re-analysis of the deposited data

How the results depend on the processing

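Across 16 alternatives, 512 of 560 refitted values of the 35 tested members kept both their direction and their side of the threshold, 11 lost a call, 13 gained one and 24 changed sign. CD68 passed in all 16 (adjusted p from 0.000318 to 0.0287 in limma), LIPA in 11 (0.00205 to 0.118) and ATP6AP1 in 10 (0.00266 to 0.0941). Against 1 higher and 2 lower members and 905 called genes, array weights gave 11, 4 and 4194. Quantile normalization gave 2 higher members, and testing all rows without a filter gave 1 lower member and 412 called genes, with ATP6AP1 at an adjusted p of 0.0594. With the replicate number as a block there were 0 higher members, 1 lower member, CD68, and 372 called genes. LIPA and ATP6AP1 had adjusted p = 0.0792 and 0.0527 there. Deviations of same-numbered libraries correlated at -0.01, -0.04 and -0.10, and no library correlated best with its own number. With so few libraries, these values cannot settle whether the numbers mark a shared batch. Leaving out 1 library gave 0 to 1 higher members, 1 to 2 lower members and 290 to 873 called genes, the lowest without shHMGB2 replicate 2. For the 118 other pathway genes, with 8 higher and 1 lower, the block gave 1 and 0, no filter 3 and 0, and array weights 30 and 9, while leaving out 1 library gave 1 to 8 higher and 0 to 2 lower. The cause of these changes was not tested. A fit that leaves out a library cannot separate having fewer libraries from which library was removed.

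Sign changes were found for 8 members near 0. Under median-ratio scaling CTSV, PSAP and TFE3 had log2 fold changes of -0.0153, -0.00365 and -0.0284. Under quantile normalization CTSB, CTSV, MANBA and TFE3 had -0.0192, -0.0353, -0.0114 and -0.0391, and GLA had 0.00946. With array weights GLA had 0.0542 and TFE3 -0.0681. With numbered copies summed TFE3 had -0.0156 and SGSH -0.00531. Leaving out 1 library gave ranges of -0.0229 to 0.0978 for CTSB, -0.00448 to 0.145 for CTSZ, -0.0246 to 0.0762 for CTSV, -0.0875 to 0.0374 for GLA, -0.00192 to 0.0553 for PSAP and -0.0334 to 0.0513 for TFE3. The FPKM columns hold no depth, so how far counting error limits low members such as SMPD1, TFEB and NEU1 is unknown.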
